A study of Homo sapiens with 6 samples.

Results

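Amino acid and osmolyte transporters are the plasma membrane proteins that bring amino acids, taurine and myo-inositol into a cell. The 10 genes described here are SLC3A2, SLC7A1, SLC7A5, SLC7A11, SLC38A1, SLC38A2, SLC1A4, SLC1A5, SLC6A6 and SLC5A3, found by matching the Ensembl IDs of the count table to these symbols. All 10 were among the 60892 rows of the table, and all 10 passed the filter on low counts, which left 12994 genes for testing. RNA was sequenced from wild-type BEAS-2B cells, an immortalised line of human bronchial epithelium, grown in medium with serum and antibiotics. The control group received medium alone and the ZQ group received Zhenqi Granules, a herbal preparation, at 10 mg/mL, in both cases for 24 hours. Every library was then exposed to methicillin-resistant Staphylococcus aureus (MRSA) at 1 bacterium per cell and collected 2 hours later. Each group had 3 libraries and none was free of bacteria, so the comparison is ZQ against medium in exposed cells.

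Several of these transporters work as linked systems. SLC3A2 is the shared heavy chain that carries the light chains SLC7A5, which exchanges large neutral amino acids such as leucine, and SLC7A11, which imports cystine for glutathione synthesis, to the cell surface. SLC38A1 and SLC38A2 bring in glutamine and other small neutral amino acids with sodium, SLC1A4 and SLC1A5 exchange neutral amino acids, and SLC7A1 takes up arginine and lysine. SLC6A6 imports taurine and SLC5A3 imports myo-inositol, organic osmolytes that cells accumulate when the surrounding salt concentration rises. Many amino acid transporter genes are known targets of ATF4, the transcription factor of the amino acid response, and the osmolyte importers are known targets of NFAT5, the transcription factor of the osmotic response.

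Sequencing depth ran from 11665967 to 14699677 counts per library in control and from 2064566 to 2451746 with ZQ, 5.95 times lower on average. A level of 3 counts corresponds to 0.174 to 0.231 CPM (counts per 1e+06 counts of the library, scaled here by TMM factors) in the control libraries and to 1.45 to 1.67 CPM in the ZQ libraries. Although shallower, the ZQ libraries held counts for more genes, 23836 to 24713 against 19400 to 21141 in control libraries. Mitochondrial transcripts took 7.04% to 10.1% of counts in control and 38.4% to 40.7% in ZQ libraries, and the part of depth and RNA composition in the results was not tested. Of 8 markers of the epithelial line, 7 were tested. The keratin gene KRT7 and the mesenchymal filament gene VIM were called higher with ZQ (log2 changes of 1.61 and 1.71), and the keratin gene KRT8 and the cadherin gene CDH2 were called lower (-1.24 and -2.49). KRT18 stood at -0.01, KRT19 at -2.24 and EPCAM at 1.09, without a call. The epithelial adhesion genes CDH1 and EPCAM were near 0 in both groups, with 6 and 45 counts over the control and 10 and 13 over the ZQ libraries. By library totals the 8 summed to 2725 to 4507 CPM in control and 2800 to 3065 CPM in ZQ libraries, and their part in the results was not tested. Of 9 markers of leukocytes, endothelium and differentiated airway cells, CD68 had no count in any library. MUC5B, PECAM1 and VWF, 3 of the 9, had enough counts to be tested and were called higher with ZQ. Their counts over the control and ZQ libraries were 2 and 75, 2 and 34, and 33 and 62. These 3 passed the low-count filter only through the ZQ libraries, so their direction was largely set by the filter. The untested leukocyte gene PTPRC had 10 counts over the control and 2 over the ZQ libraries. By library totals the 9 summed to 0.748 to 2.32 CPM in control and 30.2 to 37.3 CPM in ZQ libraries, and their part in the results was not tested. These are whole cultures, in which fewer cells of a kind and less RNA per cell cannot be told apart.

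Of the 10 transporters, 4 were lower with ZQ and 0 were higher. They were the small neutral amino acid transporters SLC38A1 and SLC38A2, the heavy chain SLC3A2 and the myo-inositol importer SLC5A3. The light chains SLC7A5 and SLC7A11, the arginine transporter SLC7A1, the exchangers SLC1A4 and SLC1A5 and the taurine importer SLC6A6 did not pass. A gene is called at an adjusted p under 0.05 in edgeR's quasi-likelihood test, with adjustment over all 12994 genes. In that test 38.3% of all tested genes were called, 19.0% as lower and 19.3% as higher, so the count of transporters called in either direction (4 of 10) is near the background. Over all genes the split between directions depends on scaling, with 2506 higher and 2472 lower by TMM, 3767 and 1611 under upper-quartile scaling and 1785 and 3503 by library totals. No transporter was called higher by DESeq2 or limma-voom either, and 0 were higher at an unadjusted p under 0.05. The median log2 change was -0.87 over the 10 transporters and 0.03 over all tested genes. In 5 transporters every ZQ library was below every control library, and in 0 every ZQ library was above, against 28.0% and 25.4% of tested genes.

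**Figure D1:**
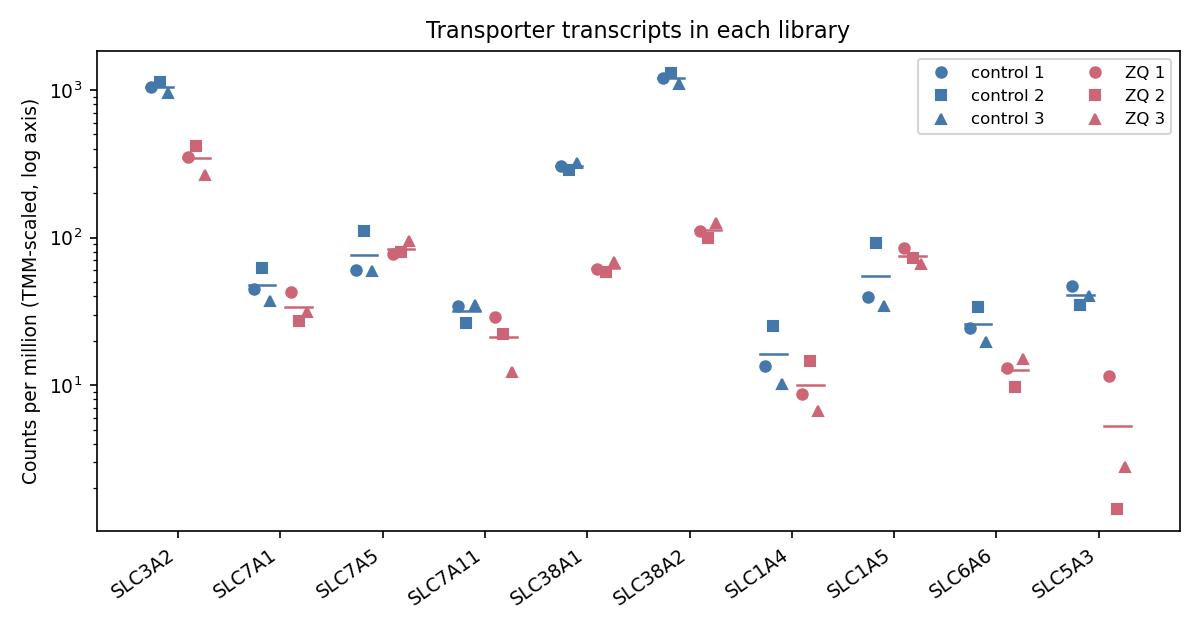
Level of each transporter transcript in each of the 6 libraries, in TMM-scaled CPM on a log axis. Points are libraries, with the shape giving the replicate number, and short lines are group means. The groups separate for SLC38A2, SLC38A1, SLC3A2, SLC5A3 and SLC6A6 and overlap for the other genes.

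SLC38A2, whose protein (SNAT2) is a sodium-coupled glutamine and alanine importer induced by amino acid shortage and by hypertonic stress, was called lower. Its change was the largest of the 10 in the edgeR fit to all libraries, but SLC5A3 had the larger one with offsets for GC content and length (-2.38 against -2.25) and without ZQ replicate 1 (-4.37 against -3.52). It stood at 1206, 1309 and 1101 CPM in control replicates 1 to 3 and at 111, 99.2 and 125 CPM in ZQ replicates 1 to 3. The lowest control library was therefore far above the highest ZQ library. The group means were 1205 ± 104 and 112 ± 12.9 CPM (n = 3, SD). SLC38A2 fell by 3.43 ± 0.15 on the log2 scale (SE, edgeR adjusted p = 3.7e-07), or 10.8-fold. Smooth offsets fitted in each library to remove trends of counts with GC content and length, called the GC and length offsets from here on, gave a smaller change of -2.25 that was still called. The longest SLC38A2 transcript has 38.1% GC. The gene lies on chromosome 12 at 46358189 to 46372867 (GRCh38).

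SLC38A1, the paralogous system A transporter (SNAT1) that lies near it on chromosome 12 at 46183063 to 46270017, also fell. Control replicates 1 to 3 had 306, 288 and 319 CPM and ZQ replicates 1 to 3 had 60.9, 58.1 and 68.1 CPM. Both groups were tight and far apart. On the log2 scale the difference was -2.29 ± 0.17 (SE, edgeR adjusted p = 1.1e-05), or 4.89-fold lower, and -1.66 with the GC and length offsets. The ratio of SLC38A1 to SLC38A2 counts, which does not depend on how libraries are scaled, had a log2 value of -1.98 ± 0.20 in control and -0.84 ± 0.058 with ZQ (n = 3, SD). It was higher in every ZQ library than in every control library, by 1.15 or 2.21-fold. These are raw counts of transcripts with 41.3% and 38.1% GC, and with the GC and length offsets the changes of the pair were closer, at -1.66 for SLC38A1 and -2.25 for SLC38A2. In an exact permutation test, two-sided, p was 0.1, which is the lowest this design allows, or 0.12 after Benjamini-Hochberg adjustment over the 6 pairs of genes compared.

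SLC3A2, the heavy chain, held the most transcript per kilobase of the 10 genes in both groups. Its values were 1046, 1133 and 957 CPM in control replicates 1 to 3 and 352, 417 and 265 CPM in ZQ replicates 1 to 3. The groups did not overlap, and ZQ replicate 3 was the lowest. The group means were 1045 ± 88.1 and 344 ± 76.3 CPM (n = 3, SD), and SLC3A2 fell by 1.60 ± 0.17 on the log2 scale (SE, edgeR adjusted p = 9.7e-05), or 3.03-fold. The gene lies on chromosome 11 at 62856102 to 62888875 (GRCh38), and shares no annotated exon bases with another gene.

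Neither of its light chains passed the test. SLC7A5, the leucine-transporting subunit LAT1, had 60.7, 110 and 59.0 CPM in control replicates 1 to 3 and 77.9, 80.3 and 94.3 CPM in ZQ replicates 1 to 3. All ZQ values lay inside the control range, with control replicate 2 above them and the other controls below. Its change was 0.13 ± 0.28 on the log2 scale (SE, edgeR adjusted p = 0.74), with a 95% interval of -0.49 to 0.76. Its direction was not stable: it stood at -0.26 by library totals, -0.18 without a low-count filter and -0.050 without ZQ replicate 3, and was called lower at -0.77 with the GC and length offsets. SLC7A5 is rich in GC (61.1%), and its partial copies SLC7A5P1 and SLC7A5P2 had no counts in any library, and how reads shared with such copies were assigned is not known, so its level is uncertain to that extent.

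SLC7A11, the cystine importer xCT, had 34.4, 26.3 and 34.8 CPM in control replicates 1 to 3 and 29.1, 22.3 and 12.3 CPM in ZQ replicates 1 to 3. The groups overlapped, and the lowest value was ZQ replicate 3, with 22 counts. Its log2 change of -0.59 ± 0.40 did not pass (SE, edgeR adjusted p = 0.27), with a 95% interval of -1.46 to 0.29, and it became 0.39, also without a call, with the GC and length offsets (GC content 35.4%). An antisense gene, SLC7A11-AS1, shares 865 bases of its exons but held at most 5 counts in a library.

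Light to heavy chain transcript ratios can be compared within each library. The log2 ratio of SLC7A5 to SLC3A2 counts was -4.11, -3.36 and -4.02 in control replicates 1 to 3 and -2.17, -2.37 and -1.49 in ZQ replicates 1 to 3. Every ZQ library was above every control library, and the mean shift was 1.82, or 3.53-fold (two-sided exact permutation p = 0.1, adjusted p = 0.12). For SLC7A11 over SLC3A2 the shift was 0.98, from -5.04 ± 0.34 to -4.07 ± 0.43 (n = 3, SD), again without overlap and with the same exact p of 0.1 and adjusted p of 0.12. The ratio between the light chains, SLC7A11 over SLC7A5, overlapped between groups, at -1.22 ± 0.74 in control and -2.06 ± 0.77 in ZQ libraries (two-sided exact permutation p = 0.3). These ratios are of raw counts, without correction for the GC content of the transcripts, which is 57.4% in SLC3A2, 61.1% in SLC7A5 and 35.4% in SLC7A11. With the GC and length offsets SLC3A2 was at -2.12, SLC7A5 at -0.77 and SLC7A11 at 0.39, so SLC7A11 then lay above SLC7A5.

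**Figure D2:**
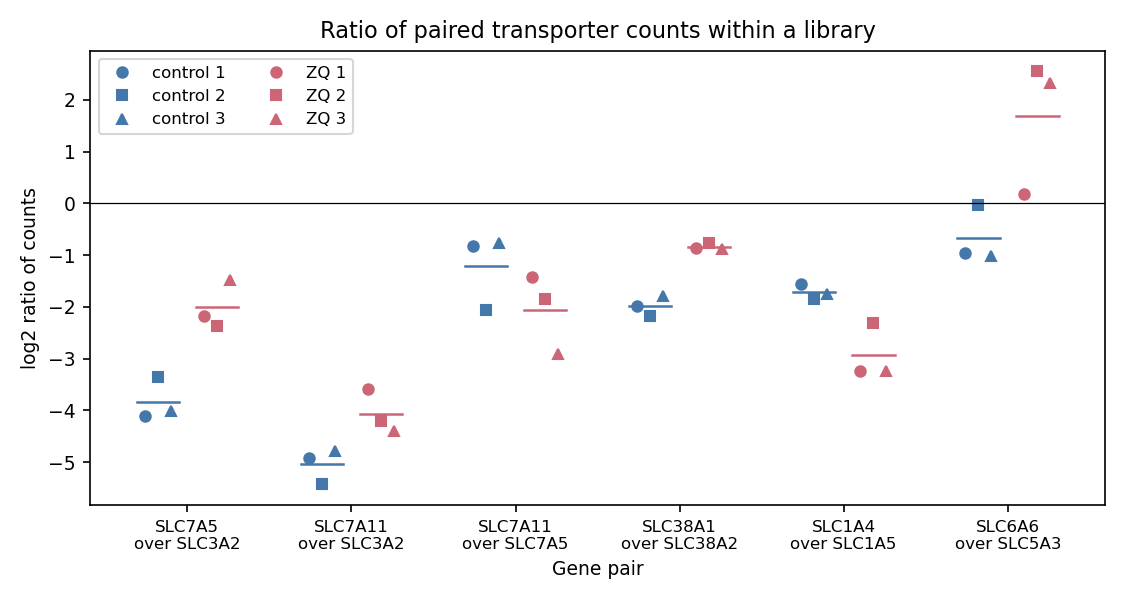
Log2 ratio of raw counts (0.5 added to each) of paired transporter genes within each library. Points are libraries and short lines group means. The groups separate in 5 of the 6 pairs and overlap for SLC7A11 over SLC7A5. Of the 5, only SLC1A4 over SLC1A5 holds no called gene. Among single tested genes, 28.0% separate as lower and 25.4% as higher with ZQ, and how often ratios of other gene pairs separate was not tested.

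SLC7A1, the cationic amino acid transporter CAT1, ranged from 36.9 to 62.1 CPM in control and from 27.1 to 42.8 CPM in ZQ libraries. The groups overlapped and the log2 change of -0.51 ± 0.33 was not called (SE, edgeR adjusted p = 0.25, 95% interval -1.24 to 0.22), and it depended on the fit. It was called at -0.90 with the GC and length offsets (edgeR adjusted p = 0.043), and stood at -0.19 without control replicate 2 and -0.056 under upper-quartile scaling. SLC7A1 lies on chromosome 13 at 29509410 to 29595688.

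Among the neutral amino acid exchangers, SLC1A5 (ASCT2), a main glutamine transporter of proliferating cells, had 39.5, 91.2 and 34.4 CPM in control replicates 1 to 3 and 85.0, 73.0 and 65.9 CPM in ZQ replicates 1 to 3. Control replicate 2 was above all ZQ libraries and the other controls were below all of them. Its change was 0.44 ± 0.37 on the log2 scale (SE, edgeR adjusted p = 0.37, 95% interval -0.38 to 1.26). Without control replicate 2 it was 1.10 and called higher, and with the GC and length offsets it was -0.33, so control replicate 2 decides the call and the offsets turn the direction. SLC1A4 (ASCT1), which carries serine and alanine, ranged from 10.2 to 25.3 CPM in control and from 6.70 to 14.5 CPM in ZQ libraries, with a log2 change of -0.70 ± 0.53 that did not pass (SE, edgeR adjusted p = 0.32, 95% interval -1.87 to 0.47). That change was -0.15 without control replicate 2 and -1.17 without ZQ replicate 2, so single libraries set its size. An antisense gene shares 780 exon bases with SLC1A5 and was at 0 counts in every library. The ratio of SLC1A4 to SLC1A5 was lower in every ZQ than in every control library, with a shift of -1.21 on the log2 scale (two-sided exact permutation p = 0.1, adjusted p = 0.12). The transcripts differ in GC content, 46.5% against 61.3%, and with the GC and length offsets their changes were close together, at -0.49 for SLC1A4 and -0.33 for SLC1A5.

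SLC5A3, the sodium and myo-inositol cotransporter, was the osmolyte importer called lower. Control replicates 1 to 3 had 47.1, 34.9 and 39.9 CPM and ZQ replicates 1 to 3 had 11.5, 1.45 and 2.79 CPM. The ZQ values rest on 21, 3 and 5 counts, so ZQ replicate 1 held most of them and the groups lay apart. Its change was -2.96 ± 0.63 on the log2 scale (SE, edgeR adjusted p = 0.0042), or 7.80-fold lower, was -4.37 without ZQ replicate 1 and was -2.38 with the GC and length offsets. SLC5A3 lies on chromosome 21 at 34073570 to 34106262 (GRCh38) and shares 273 of its 11576 exon bases with MRPS6, a mitochondrial ribosomal protein gene on the same strand that held 541, 608 and 484 counts in control and 73, 81 and 162 in ZQ libraries.

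SLC6A6, the taurine transporter, had 24.3, 34.1 and 19.7 CPM in control replicates 1 to 3 and 13.2, 9.68 and 15.1 CPM in ZQ replicates 1 to 3. Every ZQ library was below every control library, yet the log2 change of -1.04 ± 0.41 missed the threshold (SE, edgeR adjusted p = 0.070). It passed in 5 of 18 alternatives, among them DESeq2 (-0.96), the GC and length offsets (-1.25) and the fit without ZQ replicate 3 (-1.28). The ratio of SLC6A6 to SLC5A3 was higher in every ZQ library, with a shift of 2.36 on the log2 scale (two-sided exact permutation p = 0.1, adjusted p = 0.12), in which the spread of the ZQ libraries was large (SD 1.30 against 0.55 in control, n = 3 each). With the GC and length offsets SLC6A6 was at -1.25 and SLC5A3 at -2.38. GRIP2, on the opposite strand, overlaps SLC6A6 by 239 exon bases and held 0 counts in control and 6, 32 and 19 in ZQ libraries.

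**Figure D3:**
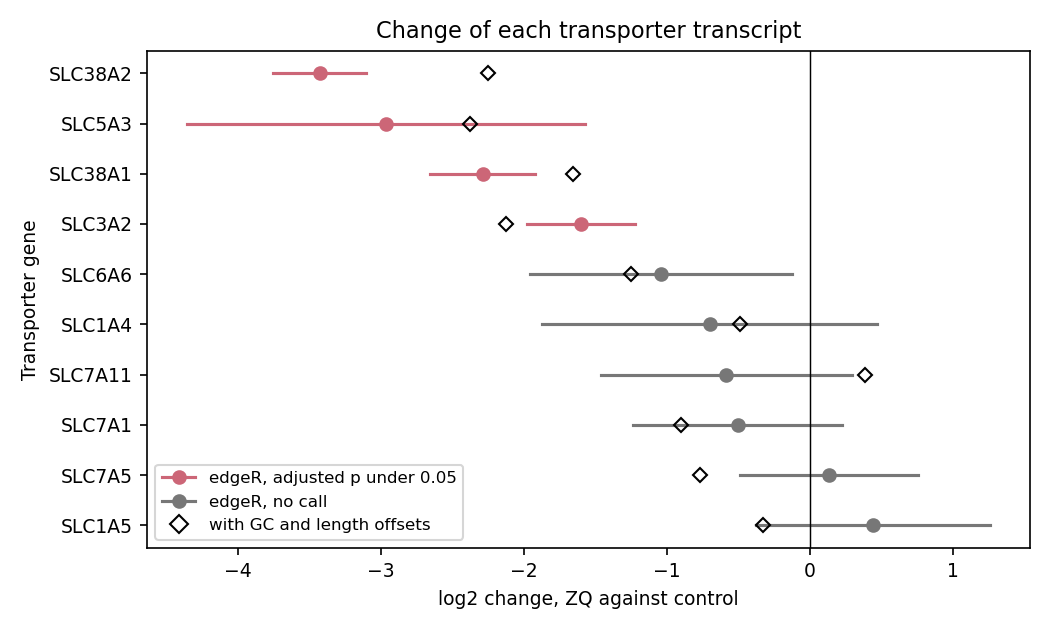
Log2 change of each transporter, ZQ against control. Circles with bars are edgeR estimates with 95% intervals, coloured where the adjusted p is under 0.05, and open diamonds are the estimates with GC and length offsets. The 4 called genes lie between -3.43 and -1.60, and the diamonds of SLC7A5, SLC7A11 and SLC1A5 lie on the other side of 0 from their circles.

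The summed level of the 10 transporters was 2823, 3114 and 2612 CPM in control replicates 1 to 3 and 793, 802 and 686 CPM in ZQ replicates 1 to 3, 3.75 times higher in control on average. Most of that difference lay in SLC3A2 and SLC38A2, the most abundant pair. Together they took 78.4% to 79.8% of the transporter counts in control and 56.8% to 64.3% in ZQ libraries, a pairing made after the values were seen. The share of SLC38A2 went from 42.3% ± 0.37 to 14.9% ± 3.02, whereas that of SLC3A2 went from 36.7% ± 0.35 to 45.0% ± 6.70 (n = 3, SD). The fall in the pair's share therefore lay in SLC38A2. The share of SLC7A5 went from 2.65% ± 0.78 to 11.2% ± 2.21 and that of SLC1A5 from 1.88% ± 0.91 to 9.81% ± 0.83 (n = 3, SD). SLC7A1, SLC7A11, SLC1A4 and SLC6A6 also took a larger share in every ZQ library. Shares are relative, so a smaller share of SLC38A2 raises the others. The 6 genes without a call summed to 195 to 349 CPM in control and 226 to 257 CPM in ZQ libraries.

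**Figure D4:**
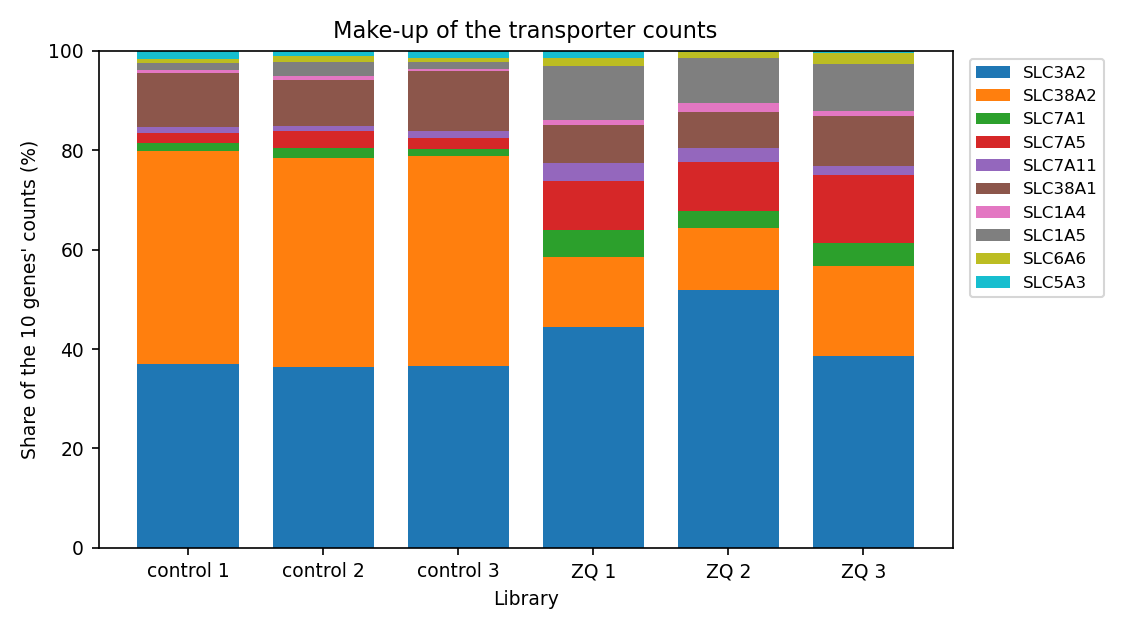
Share of the summed counts of the 10 transporters held by each gene, per library, in percent. SLC38A2 takes 42.0% to 42.7% in the control and 12.4% to 18.2% in the ZQ libraries. SLC3A2, SLC7A1, SLC7A5, SLC7A11, SLC1A4, SLC1A5 and SLC6A6 each take more in every ZQ library than in any control library. Shares are relative, so a smaller share of SLC38A2 raises those of the other genes.

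The order of the levels changed accordingly. In CPM per kilobase of the longest annotated transcript, control cells had SLC3A2 first with 470 ± 39.6, then SLC38A2 with 247 ± 21.2 and SLC38A1 with 37.7 ± 1.92 (n = 3, SD), each apart from its neighbour. SLC1A5 (19.1 ± 10.9) and SLC7A5 (16.9 ± 6.44) came next, with overlapping ranges, and SLC7A1 (6.51 ± 1.75) after them. SLC6A6, SLC5A3, SLC7A11 and SLC1A4 followed between 2.82 and 3.98, each overlapping the gene above it. In ZQ cells SLC3A2 was still first with 155 ± 34.3, followed by SLC1A5 (25.9 ± 3.36), SLC38A2 (22.9 ± 2.65) and SLC7A5 (18.6 ± 1.96), whose neighbouring ranges overlapped. SLC38A1 (7.73 ± 0.64) and SLC7A1 (4.59 ± 1.11) came next, then SLC7A11, SLC6A6 and SLC1A4 between 1.73 and 2.20 with overlapping ranges, and SLC5A3 was last with 0.45 ± 0.47. Per kilobase of all annotated exons, SLC7A5 and SLC38A2 exchange places in ZQ cells and the order of SLC6A6, SLC5A3 and SLC7A11 changes in control cells. By that measure SLC3A2 and SLC38A2 were close in control cells, at means of 202 and 183, so the gap between them depends on the length used.

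Control replicate 2 differed from the other controls in several of these genes. Its level was at least 1.5 times the mean of control replicates 1 and 3 in 5 of the 10 transporters, SLC1A5 (2.47 times), SLC1A4 (2.15), SLC7A5 (1.85), SLC6A6 (1.55) and SLC7A1 (1.52). Among 9095 tested genes with a control mean of at least 5 CPM, 15.5% reached that ratio, and the median ratio was 0.98. SLC3A2 and SLC38A2 had ratios of 1.13 each, and SLC38A1, SLC5A3 and SLC7A11 had ratios between 0.760 and 0.922. None of the 4 called genes lost its call without control replicate 2.

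Promoter sequence was examined for the sites of the regulators named above, using RefSeq windows from 250 bases before to 50 bases after a transcription start (GRCh38.p14). The table held 14 such windows for 8 of the 10 genes, all but SLC6A6 and SLC7A11. The letters TGATGNAA, on either strand, are the core of the amino acid response element (CARE) bound by ATF4 with C/EBP partners. They occur in 5 of the 14 windows, 1 each in SLC1A4, SLC3A2, SLC38A1, SLC7A1 and SLC1A5, and in 3.62% of all 35116 windows. The consensus of the tonicity element (TonE) bound by NFAT5 occurs in 1 of the 14, that of SLC38A2, and in 4.92% of all windows. No window holds both. The matches are shown with their flanks as read along the gene, 5′ to 3′, because they let the letters be compared between genes that were called and genes that were not. Capitals mark the match, which lies on the opposite strand in SLC1A4, SLC3A2 and SLC38A2 and so reads as the reverse complement there.
SLC1A4, CARE, chr2:64989381-64989410: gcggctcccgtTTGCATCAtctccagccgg
SLC3A2, CARE, chr11:62881725-62881748: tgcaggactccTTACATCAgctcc
SLC38A1, CARE, chr12:46266502-46266531: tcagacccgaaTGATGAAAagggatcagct
SLC7A1, CARE, chr13:29595663-29595692: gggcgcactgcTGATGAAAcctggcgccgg
SLC1A5, CARE, chr19:46784893-46784922: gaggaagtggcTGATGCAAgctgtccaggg
SLC38A2, TonE, chr12:46372726-46372755: cgccttagaACGCCTTTCCAgtactgctag
Counted from the start of its own window, the match lies 97 bases before it in SLC1A5, 7 in SLC1A4 and 4 in SLC38A1. It begins at transcribed base 8 in SLC7A1, 28 in SLC38A2 and 38 in SLC3A2. That start need not be the gene's outermost one. Along the gene, the annotated spans begin earlier, at 62856102 in SLC3A2, 46270017 in SLC38A1, 46372867 in SLC38A2, 46788594 in SLC1A5 and 64988477 in SLC1A4. Which starts these cells use was not tested. Genes with the CARE letters were both called lower (SLC3A2, SLC38A1) and not called (SLC1A4, SLC7A1, SLC1A5). A match of letters is a description and not a measured binding site.

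ATF4 transcript itself rose, from 131 ± 7.04 to 304 ± 37.7 CPM (n = 3, SD), a difference of 1.22 ± 0.16 on the log2 scale (SE, edgeR adjusted p = 3.4e-04), or 0.74 with the GC and length offsets. Of 15 tested genes for GCN2, the kinase that senses uncharged tRNA, for ATF4 and for their partners and targets, 5 were higher and 1 lower. Of all tested genes 38.3% were called, 19.3% higher and 19.0% lower, so this list's count in either direction is near the background. Upper-quartile scaling gave 9 higher and 1 lower, and both library totals and the fit without a low-count filter gave 3 higher and 1 lower. CEBPB and DDIT3, both C/EBP factors, rose by 2.73 ± 0.41 (1.29 with the GC and length offsets) and 1.90 ± 0.30 on the log2 scale (SE). The other genes called higher, named after their values were seen, were ATF5 and NUPR1, both stress-induced regulators. DDIT4, an inhibitor of mTORC1, was the gene called lower, with a change of -1.58 ± 0.35 that was -0.999 without control replicate 2 and lost its call in limma-voom (-1.52). The median over this list was 0.71.

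NFAT5 fell from 28.0 ± 4.35 to 8.06 ± 2.74 CPM (n = 3, SD), with a difference of -1.79 ± 0.44 on the log2 scale (SE, edgeR adjusted p = 0.0087) that missed the threshold without control replicate 3 (-1.57, edgeR adjusted p = 0.063). Of 17 tested osmolyte and cell volume genes, 6 were lower and 2 higher, beside 19.0% and 19.3% of all tested genes. The median over the list was -0.94. The split was 5 lower and 4 higher under upper-quartile scaling and 9 lower and 2 higher by library totals. LRRC8C and LRRC8D, subunits of the volume-regulated anion channel that releases osmolytes from swollen cells, fell with changes of -4.29 ± 0.53 and -2.62 ± 0.39. With the GC and length offsets these were -3.27 and -1.87. They rest on 4, 2 and 9 counts for LRRC8C and 11, 18 and 10 for LRRC8D in ZQ replicates 1 to 3. SGK1, a kinase induced by cell shrinkage, fell with a change of -1.62 ± 0.23 (-0.78 with the GC and length offsets), from 209.6 ± 7.73 to 68.0 ± 19.6 CPM (n = 3, SD). The creatine transporter SLC6A8 rose by 2.51 ± 0.34 on the log2 scale, or 1.49 with the GC and length offsets.

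Partners of the SLC3A2 heterodimers had 5 of 10 genes lower and 1 higher, beside 19.0% and 19.3% of all tested genes. The median over the list was -0.91. The split of the list was 4 lower and 2 higher under upper-quartile scaling and 5 lower and 0 higher by library totals. ITGB1, the integrin subunit that binds SLC3A2, had 1439 ± 97.3 CPM in control and 77.6 ± 11.7 CPM with ZQ (n = 3, SD), with a difference of -4.21 ± 0.16 on the log2 scale (SE, edgeR adjusted p = 1.9e-07). CD44, an adhesion receptor whose variant form stabilises xCT, fell by 1.47 ± 0.19 on the log2 scale. NEDD4, a ubiquitin ligase, had a change of -1.40 ± 0.22, or -0.35 without a call with the GC and length offsets. SLC16A1, a lactate transporter that shares the chaperone BSG, had a change of -4.64 ± 0.65, on 0, 9 and 4 counts in the ZQ libraries. BSG itself was the fifth gene called lower (-0.97) and OTUB1, a deubiquitinase known to stabilise xCT, the gene called higher (0.58), both named after their values were seen.

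Of 34 other amino acid transporters, 19 were tested, with 3 lower and 2 higher, beside 19.0% and 19.3% of all tested genes. The median log2 change over the list was 0.08. Upper-quartile scaling called 2 lower and 4 higher, and library totals 3 lower and 1 higher. SLC36A4, a high-affinity transporter of proline and tryptophan, fell with a change of -2.63 ± 0.47, or -1.37 with the GC and length offsets. SLC38A4, a further system A member, had a change of -3.18 ± 0.85 that rests on 0, 7 and 1 counts with ZQ. It was -5.53 without ZQ replicate 2 and lost its call with the offsets (-1.88) and without control replicate 1 (-3.02). The other gene called lower, named after its value was seen, was SLC38A9 (-1.75), a lysosomal arginine sensor. SLC66A1, the lysosomal exporter of cationic amino acids, rose by 1.56 ± 0.48 on the log2 scale but kept its call in only 12 of 18 alternatives, losing it by library totals (1.16), with the offsets (0.47) and without control replicate 1 (1.50), control replicate 3 (1.53), ZQ replicate 2 (1.26) or ZQ replicate 3 (1.33). SLC1A2, a glutamate transporter best known from astrocytes, was the other gene called higher. It had 6 counts over the control libraries and 47 over the ZQ libraries. SLC1A2 passed the low-count filter only through the ZQ libraries, so its direction was largely set by the filter. The ZQ libraries held counts for more genes in general, and the part of this in the call was not tested. Of 195 other SLC genes tested, 42 were called lower and 33 higher, with a median of -0.01, beside the same shares of all tested genes. Those counts became 32 and 45 with upper-quartile scaling, and 55 and 25 with library totals. The set is not limited to other SLC families and includes tested SLC genes of the lists above, such as SLC36A4, SLC6A8 and SLC16A1. The difference of the 10 transporters from these genes was not tested.

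**Figure D5:**
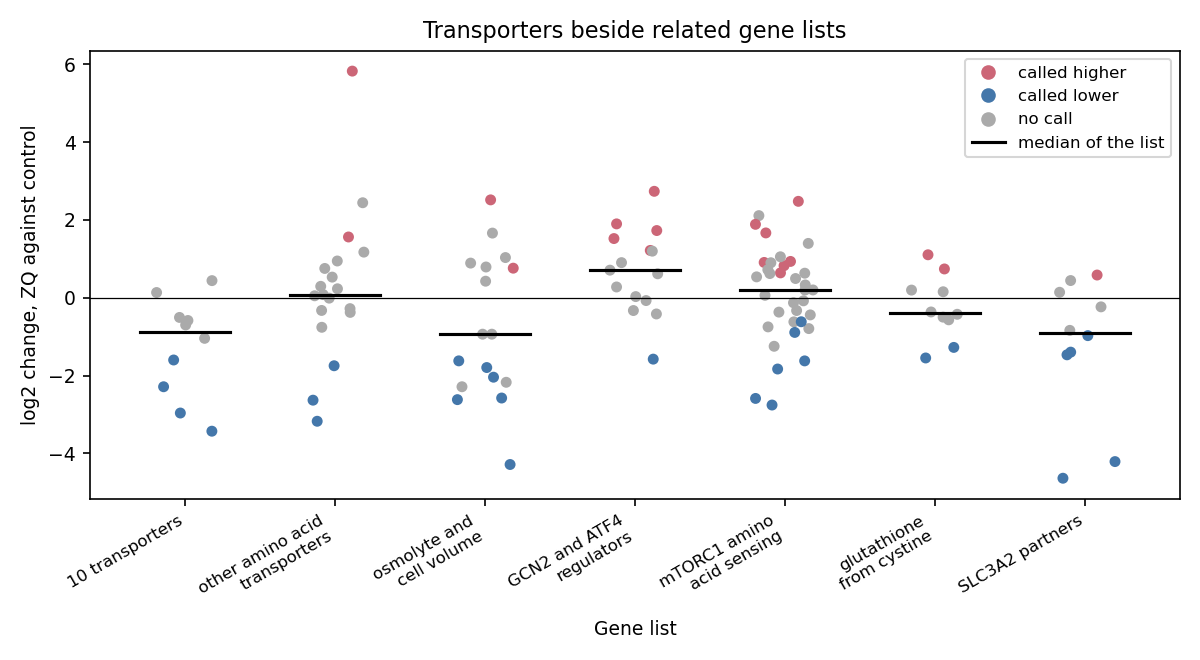
Log2 change, ZQ against control, of the tested genes of each list. Points are genes, coloured by call, and lines are list medians, which are -0.87 for the 10 transporters, -0.94 for osmolyte and cell volume genes and 0.71 for the GCN2 and ATF4 regulators.

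The genes whose pattern over the 6 libraries was most like that of SLC3A2, by Euclidean distance between log2 CPM values centred on each gene's mean, were MARS1 (distance 0.240), IARS2 (0.260) and TMED9 (0.264). MARS1 encodes the cytosolic methionyl-tRNA synthetase, IARS2 the mitochondrial isoleucyl-tRNA synthetase and TMED9 a cargo protein of the early secretory pathway. Their log2 changes were -1.50 ± 0.17, -1.75 ± 0.24 and -1.56 ± 0.22 (SE), that of IARS2 being -1.08 with the GC and length offsets.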

How the data were processed

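RNA sequencing covered 6 BEAS-2B libraries, 3 control and 3 ZQ. The authors deposited raw read counts per gene, not normalised. The submitters' processing notes name GRCh38 as build and list Cufflinks 2.1.1, without its role. Not given in the sources used here are the aligner, the counter, the annotation and whether strand was used, and without strand a gene and its antisense partner cannot be told apart. No label says that libraries are separate cultures. The p-values therefore measure only the spread between libraries, which may be technical.

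Tests used edgeR 4.0.16 under R 4.3.3 (filterByExpr with a minimum count of 10 and a minimum total of 15, TMM scaling, quasi-likelihood F-test, Benjamini-Hochberg adjustment, threshold 0.05). The procedure was run on simulated counts in which a small set of genes was changed by known folds, equally in both directions. That simulation held no shift in mitochondrial share and the same dispersion in both groups. In the data the spread between libraries (root of edgeR's common dispersion) was 0.522 with ZQ and 0.265 in control. The simulation therefore cannot say how the procedure behaves under these differences. The SE is the size of the log2 change divided by the root of F. Symbols, positions, transcript lengths and GC content came from GENCODE release 29 on GRCh38 and a table of gene names, promoters from RefSeq. Pair ratios used counts plus 0.5 and exact permutation tests. Alternatives used DESeq2 1.42.0, limma 3.58.1 (voom), offsets fitted with mgcv 1.9.3, other scalings and filters, control libraries thinned to ZQ depth, fits leaving out each library and a fit with the replicate number as block. Named genes are the 10 transporters, up to 4 called genes per list with the smallest adjusted p, NFAT5, ATF4 and the 3 genes most like SLC3A2 with a mean of at least 5 CPM. The members, lists and alternatives were chosen with earlier results of these data known.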

Additional observations from a re-analysis of the deposited data

How the results depend on the processing

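SLC3A2, SLC38A1, SLC38A2 and SLC5A3 were called lower in all 18 alternatives, with log2 changes of -2.12 to -1.15, -2.67 to -1.66, -3.81 to -2.25 and -4.37 to -2.38. The number of transporters called was 4 to 5 with 1 library left out and 7, all lower, with the GC and length offsets, which added SLC6A6, SLC7A1 and SLC7A5. The transporters' median of -0.87 became -0.42 under upper-quartile scaling, -1.27 by library totals, -1.18 without a low-count filter and -1.08 with the offsets, and ran from -1.08 to -0.67 with 1 library left out. Upper-quartile scaling and library totals put the median over all tested genes at 0.48 and -0.35, and the fit without a filter put it at 1.75 over 38214 genes, so the transporters' median stayed below it in each. The direction turned for SLC7A5 (-0.26 by library totals, -0.18 without a filter, -0.050 to 0.58 with 1 library left out, negative without ZQ replicate 3, and -0.77 with the offsets), and with the offsets also for SLC7A11 (0.39), SLC1A5 (-0.33) and the glutathione peroxidase gene GPX4 (-0.68). SLC1A5 was called higher without control replicate 2 (1.10). Calls over all tested genes numbered 4978, 11603 without a filter, and 2815 to 5407 with 1 library left out. Other amino acid transporters called went from 5 to 10 without a filter, to 2 with the offsets, and to 2 or 3 without control replicate 1 or 3. The GCN2 and ATF4 list went from 6 to 10 under upper-quartile scaling, the mTORC1 list from 13 to 8 without control replicate 1, and other SLC genes from 75 to 39 or 42 without control replicate 1 or 3. The cause of these changes was not tested. Deviations from the group means correlated at 0.0094 to 0.037 between same-numbered libraries and at -0.035 to 0.0086 between differently numbered ones. Values this small, from 3 libraries per group, cannot decide whether the numbers pair libraries, and no label says that they do. With the replicate number as a block, 4404 genes and the same count of 4 transporters were called. Depth limits the ZQ values, where SLC5A3 held 3 to 21 counts.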

Other observations

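Genes that carry amino acid signals to mTORC1, the kinase complex that couples nutrient supply to growth, included genes called in each direction, with a balance that depended on scaling. Of 35 tested, 7 were higher and 6 lower, near the 19.3% and 19.0% of all tested genes. The median log2 change over the list was 0.20. Upper-quartile scaling called 12 higher and 3 lower, whereas library totals called 2 higher and 7 lower. LAMTOR5, a subunit of the Ragulator scaffold on the lysosome, rose by 0.93 ± 0.19 on the log2 scale (SE, edgeR adjusted p = 0.0031), a call that was lost without a low-count filter (0.62). SEH1L, a subunit of the GATOR2 complex, fell with a change of -1.83 ± 0.27 (SE), or -0.91 with the GC and length offsets. The folliculin partner FNIP1 fell with one of -2.76 ± 0.42, or -1.76 with the offsets, and the leucine sensor SAR1B with one of -1.62 ± 0.28, which was -0.63 and not called with the offsets.

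Of 10 tested genes for glutathione synthesis from cystine, 2 were higher and 2 lower, near the 19.3% and 19.0% of all tested genes. The list had 0 higher and 3 lower by library totals and 1 higher and 4 lower with the GC and length offsets. TXNRD1, the thioredoxin reductase, and NFE2L2, which encodes NRF2, fell with changes of -1.55 ± 0.13 and -1.28 ± 0.18 (SE), that of NFE2L2 being -0.78 with the offsets and -0.83 under upper-quartile scaling. GCLM, the regulatory subunit of the first enzyme of glutathione synthesis, rose by 1.10 ± 0.28 on the log2 scale, or 2.35 with the offsets, and its call was lost by library totals (0.72) and without ZQ replicate 2 (0.67). GPX4, which reduces lipid peroxides with glutathione, rose by 0.74 ± 0.15, lost its call when low counts were not filtered (0.43) or libraries were scaled to their totals (0.35), and was called lower with the offsets (-0.68).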
